A study of Mus musculus with 12 samples.

Results

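Microglia, the resident macrophages of the brain parenchyma, were followed in regional transcriptomes of the mouse hippocampus through 9 genes that mark them: C1qa, C1qb, C1qc, Csf1r, Cx3cr1, P2ry12, Tmem119, Ctss and Cst3. The genes were taken by symbol from a table of 32546 genes, in which all 9 had a row. The transcriptomes came from photo-isolation chemistry (PIC), in which complementary DNA is made on a tissue section with primers that carry a light-removable cage, and only the cDNA of the area lit under the microscope is amplified and sequenced. Values are counts of unique molecular identifiers (UMIs, random tags that mark single cDNA molecules) read at the 3′ ends of transcripts, and levels are given in CPM, the UMIs of a gene as a share of all UMIs of the replicate, scaled to parts in 1000000. Because the reads come from transcript ends and no length scaling was made, levels are compared between samples and not between genes.

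All tissue was from male ICR mice (Slc:ICR in the study's methods) of 8 weeks, and no group carried a genetic change or a drug. The lit regions were CA1, CA3 and the dentate gyrus (DG). Each region was taken in 4 histological conditions: fresh-frozen sections permeabilised with 0.1 N HCl for 5 min (fresh-frozen HCl), fresh-frozen sections in Tris-EDTA buffer at 70 °C for 1 h (fresh-frozen TE), frozen sections of tissue fixed in 4% paraformaldehyde (fixed frozen TE), and paraffin sections of such fixed tissue (fixed paraffin TE), the last 2 also in Tris-EDTA. In the study's protocol all sections, fresh-frozen ones included, are also fixed briefly in 4% paraformaldehyde before permeabilisation. Each of the 12 libraries, 1 for each region in each condition, pooled 4 barcoded replicates, giving 48 replicates. The study calls the 4 replicates biological, but the labels do not say which animal each came from. The 3 regions of a replicate number may therefore share an animal, and tests and SDs over 12 or 24 replicates take them as independent. A region or condition difference cannot be told apart from a difference between libraries.

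Microglia derive from yolk sac progenitors, renew themselves locally and depend on signalling through the receptor CSF1R for survival. With their processes they survey the tissue, respond to purines through P2RY12 and to the neuronal chemokine fractalkine through CX3CR1, and they are the main source of the complement component C1q in the brain, which can tag synapses for removal. Among the genes followed here, Tmem119 and P2ry12 are used to tell parenchymal microglia from other macrophages, whereas Cst3 is also expressed by astrocytes, choroid plexus and neurons. In these mixed samples, fewer cells of a type and less RNA per cell cannot be told apart.

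The replicates held 35932 to 1111804 UMIs, with medians of 731106.5 in fresh-frozen HCl, 629964.5 in fresh-frozen TE, 122520.5 in fixed frozen TE and 67528 in fixed paraffin TE. The 9 genes together were seen in 6690, 6731, 784 and 264 UMIs in these conditions, and without Cst3 in 1707, 2091, 310 and 127. Cst3 alone thus gave between 51.9% (paraffin) and 74.5% (HCl) of them. In fixed tissue a value of the other 8 genes often rests on 0 to 10 UMIs. All 9 genes had UMIs in every condition, and 42 of 42 further microglia genes were seen in both fresh-frozen conditions. In paraffin 39 of them were seen (Itgb2, Golm1 and Ltc4s were at 0). Detection does not show which cells the UMIs came from, so it does not check the label of the list.
Markers of border macrophages (9 of 10 listed genes in the table) summed to 23.6 to 58.4 CPM in fresh-frozen HCl, 7.53 to 64.5 CPM in fresh-frozen TE, 0 to 45.9 CPM in fixed frozen TE and 0 to 80.0 CPM in paraffin, with Pf4 and Cd209a at 0 in both fixed conditions and Cbr2 also at 0 in paraffin. Markers of monocytes and neutrophils (7 of 10 in the table) reached at most 3.81, 1.95, 18.4 and 27.8 CPM in the same order, and 1, 5, 6 and 4 of the 7 were at 0.

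The C1q genes lie side by side on chromosome 4, and the promoters of the members were searched for the purine-rich core bound by ETS factors such as PU.1, the macrophage regulator encoded by Spi1. RefSeq promoters of GRCm38.p6, of 300 bases from 250 before to 50 after the start, were at hand for 6 of the 9 genes. The letters AGGAAGT, searched on both strands, were found in 4 of the 6 and in 9.35% of 32851 promoters. The longer form GAGGAAGT, which contains the first, was found in 2 of them (C1qc and Ctss) and in 3.2% of all promoters. The windows below are shown because they hold the match in these 4 genes. They run 5′ to 3′ on the strand of the gene, and capitals mark the match or, where it lies on the opposite strand, its reverse complement.
C1qb, chr4:136886236-136886264, minus strand, match from position -53: caggacctgaaACTTCCTgagggcagcag
C1qc, chr4:136893092-136893120, minus strand, match from position -195: ggacggcagacACTTCCTcattttggcac
P2ry12, chr3:59263020-59263048, minus strand, match from position -52: agctaacaagaAGGAAGTtccccagtgac
Ctss, chr3:95526773-95526801, plus strand, match from position -2: aatgaaagttcACTTCCTcattgtggatg
Positions are counted from the RefSeq start. The first 3 windows lie outside the GENCODE M21 models of their own genes and the last spans the start of Ctss. Overlap of the windows with other genes was not checked. A match of letters does not show binding, and no binding data were used.

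C1qa (chr4:136895917-136898803), C1qb (chr4:136880129-136886187) and C1qc (chr4:136889804-136893065), all on the minus strand of GRCm38, encode the A, B and C chains of C1q, the molecule that starts the classical complement pathway. C1qb and C1qc were seen in all 24 fresh-frozen replicates, and C1qa was the thinnest of the 3, with 87 UMIs over all 48 replicates. In fresh-frozen HCl, C1qa stood at 8.21, 3.28, 12.7 and 15.7 CPM in CA1, at 7.50, 9.64, 2.47 and 6.84 in CA3 and at 5.68, 4.65, 1.27 and 0 in DG. In fresh-frozen TE it stood at 1.15, 1.51, 5.40 and 0 CPM in CA1, at 0, 2.70, 2.14 and 1.95 in CA3 and at 0, 8.52, 1.68 and 6.79 in DG. The HCl values were mostly the higher ones, and the 2 conditions overlapped.
In fixed frozen TE, 5 of 12 replicates had no C1qa UMI and the others reached at most 28.2 CPM. In paraffin, 8 of 12 had none and the highest was 14.1 CPM, which was 1 UMI.

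C1qb kept a narrow range in fresh-frozen TE, at 29.9, 37.7, 27.0 and 27.0 CPM in CA1, 19.2, 27.9, 24.7 and 31.3 in CA3 and 12.2, 20.4, 25.2 and 17.0 in DG. There the 4 CA1 values lay above the 4 DG values, without overlap. In fresh-frozen HCl the same gene stood at 9.58, 14.8, 32.2 and 47.2 CPM in CA1, at 13.9, 20.3, 22.2 and 20.5 in CA3 and at 22.7, 21.7, 33.0 and 33.5 in DG, and the regions overlapped. Fixed frozen TE gave 0 to 42.6 CPM, with 5 of 12 replicates at 0, and paraffin 0 to 20.3 CPM, with 6 at 0.

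C1qc was the chain with the most UMIs, 603 in all, and the one that differed most between the fixed conditions. Its fresh-frozen HCl values were 30.1, 26.2, 32.2 and 62.9 CPM in CA1, 26.8, 17.1, 37.0 and 52.0 in CA3 and 31.2, 29.5, 40.6 and 25.1 in DG. Its fresh-frozen TE values were 39.0, 42.2, 40.5 and 32.4 CPM in CA1, 16.2, 30.6, 41.8 and 37.1 in CA3 and 32.5, 35.8, 45.3 and 74.7 in DG. Fixed frozen TE gave 14.5, 27.6, 34.1 and 0 CPM in CA1, 20.4, 63.5, 23.5 and 18.9 in CA3 and 59.6, 48.8, 24.7 and 18.3 in DG.
These ranges all overlapped. In paraffin, by contrast, C1qc had no UMI in 10 of 12 replicates, and its 3 UMIs fell in 2 DG replicates, at 8.89 and 8.97 CPM. The 8 CA1 and CA3 replicates of paraffin had none, which allows up to 14.3 CPM in CA1 and 9.75 CPM in CA3 (3 UMIs of the pooled total of 4 replicates).

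Csf1r, Cx3cr1 and P2ry12 encode surface receptors. Csf1r (chr18:61100598-61132149, plus strand) encodes the receptor of CSF1 and IL-34. In fresh-frozen HCl it stood at 49.2, 39.3, 51.8 and 47.2 CPM in CA1, at 39.7, 37.5, 37.0 and 52.0 in CA3 and at 19.9, 32.6, 22.8 and 25.1 in DG. All CA1 and CA3 values were above all DG values. In fresh-frozen TE it stood at 40.2, 49.7, 45.9 and 51.3 CPM in CA1, at 48.6, 50.4, 40.7 and 35.2 in CA3 and at 32.5, 23.9, 48.7 and 40.8 in DG, where the regions overlapped.
Fixed frozen TE gave 15.7 to 56.8 CPM with no replicate at 0. Paraffin gave 0 to 109 CPM with 3 of 12 at 0, and its highest value, in DG replicate 4, was 7 UMIs.

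Cx3cr1 (chr9:119901616-120069879, minus strand) encodes the fractalkine receptor. In fresh-frozen TE it stood at 75.8, 45.2, 66.2 and 94.4 CPM in CA1, at 44.2, 59.4, 37.5 and 25.4 in CA3 and at 48.8, 69.9, 43.6 and 102 in DG. In fixed frozen TE the values were 28.97, 11.1, 8.53 and 18.4 CPM in CA1, 50.9, 7.06, 7.83 and 18.9 in CA3 and 7.45, 19.5, 20.6 and 9.17 in DG. Apart from CA3 replicate 1, at 50.9 CPM, 10 of the other 11 fixed frozen values lay below the lowest fresh-frozen TE value of 25.4 CPM.
Fresh-frozen HCl lay between them with a median of 42.5 CPM and a range of 23.6 to 71.6, and paraffin ranged from 0 to 46.7 CPM.

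P2ry12 (chr3:59216272-59262871, minus strand) encodes the ADP receptor through which microglial processes move toward injury. It was steadiest in fresh-frozen TE, at 26.4, 24.1, 18.9 and 27.0 CPM in CA1, 22.1, 25.2, 22.5 and 27.4 in CA3 and 16.3, 18.7, 20.1 and 13.6 in DG. In fresh-frozen HCl it stood at 21.9, 16.4, 29.9 and 0 CPM in CA1, at 17.2, 12.9, 14.8 and 19.1 in CA3 and at 11.4, 10.9, 7.62 and 4.19 in DG. The 4 CA3 values were above the 4 DG values in both fresh-frozen conditions, and below them in fixed frozen TE, with 0, 14.1, 7.83 and 0 CPM in CA3 against 14.9, 39.1, 45.4 and 18.3 in DG.
The exons of P2ry12 overlap those of Med12l on the other strand (252 UMIs over all replicates). The counting command in the study's methods sets no strand option, so reads in the shared exons cannot be assigned to either gene. The same limit holds for Csf1r with Hmgxb3 (8 UMIs) and Cx3cr1 with Gm33858 (2 UMIs), whose exons also overlap on opposite strands.

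Tmem119 (chr5:113793729-113800516, minus strand), a membrane protein of parenchymal microglia, was sparse, with 166 UMIs in all. In fresh-frozen HCl it stood at 4.10, 6.56, 9.20 and 15.7 CPM in CA1, at 13.9, 16.1, 9.88 and 20.5 in CA3 and at 5.68, 12.4, 14.0 and 20.9 in DG. In fresh-frozen TE it stood at 5.74, 7.53, 8.10 and 8.09 CPM in CA1, at 1.47, 6.30, 4.29 and 13.7 in CA3 and at 6.10, 3.41, 3.36 and 10.2 in DG. The TE values sat at the low end of the HCl values, with overlap. In fixed frozen TE 4 of 12 replicates had no Tmem119 UMI, and in paraffin 7 of 12.

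Ctss and Cst3 belong to lysosomal proteolysis. Ctss (chr3:95526786-95556403, plus strand) encodes cathepsin S, a protease of antigen-presenting cells. It stood at 105, 72.3, 59.4 and 62.1 CPM in CA1, 59.0, 88.1, 47.2 and 60.6 in CA3 and 91.5, 69.9, 40.3 and 139 in DG of fresh-frozen TE. The other conditions were lower on average, at 45.5 ± 18.1 CPM (SD, n = 12) in fresh-frozen HCl, 39.5 ± 13.9 (SD, n = 12) in fixed frozen TE and 32.4 ± 15.8 (SD, n = 12) in paraffin, and their ranges overlapped that of fresh-frozen TE.

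Cst3 (chr2:148871722-148875692, minus strand) encodes cystatin C, a secreted inhibitor of cathepsins, cathepsin S among them. Its fresh-frozen HCl values were 617, 800, 958 and 770 CPM in CA1, 551, 706, 657 and 848 in CA3 and 284, 436, 383 and 440 in DG. All CA1 and CA3 values were above all DG values. Its fresh-frozen TE values were 640, 612, 709 and 869 CPM in CA1, 424, 553, 593 and 690 in CA3 and 466, 503, 522 and 632 in DG, where CA1 and DG overlapped only between 612 and 632 CPM.
In fixed frozen TE it fell to 145, 365, 358 and 111 CPM in CA1, 183, 353, 219 and 170 in CA3 and 261, 495, 173 and 147 in DG. In paraffin it stood at 85.4, 162, 84.8 and 55.7 CPM in CA1, 91.0, 242, 439 and 200 in CA3 and 47.5, 35.6, 170 and 46.7 in DG. CA3 held the 3 highest paraffin values, and CA1 replicate 2 and DG replicate 3 lay above its lowest one.

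**Figure D1:**
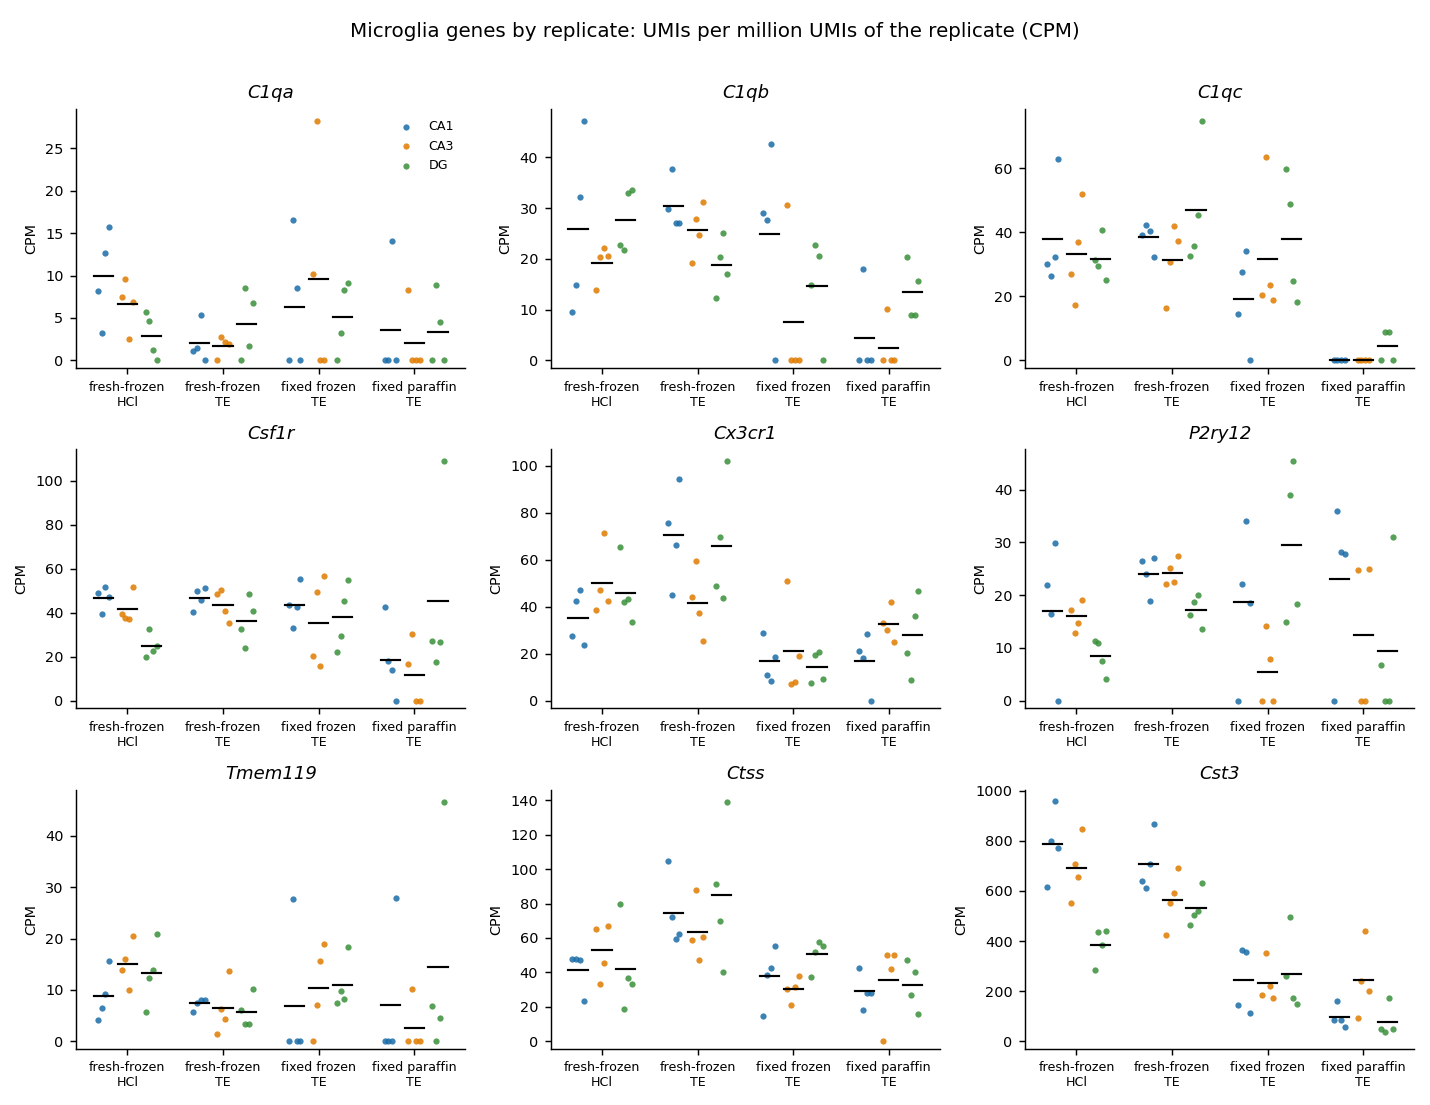
CPM of each of the 9 genes (vertical axes, linear) in every replicate by histological condition, with 1 point per replicate, colour for the region and a black line for the mean of the 4 replicates. Cst3 falls from 284 to 958 CPM in fresh-frozen HCl to 35.6 to 439 CPM in paraffin, and C1qc lies on 0 in 10 of 12 paraffin replicates.

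Whether microglial transcripts differed between hippocampal regions was tested separately in the 4 conditions by the quasi-likelihood test of edgeR, adjusted over all genes tested. Of 88 tests of the 9 genes in the 12 region comparisons, 5 passed an adjusted p of 0.05, all of Cst3 or Csf1r and all higher in CA1 or CA3 than in DG. DESeq2 called 2 of the 88. A further 20 gene and comparison pairs had under 10 UMIs and were not tested. At an unadjusted p under 0.05, 14 of the 88 passed in edgeR and 8 in DESeq2.

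Csf1r in fresh-frozen HCl was higher in CA1 than in DG, 0.87 ± 0.29 on the log2 scale (SE, adjusted p = 0.0326). In CA3 it was 0.72 ± 0.26 above DG there (adjusted p = 0.0953), and with the replicate number as a block 0.67 (adjusted p = 0.0451). In fresh-frozen TE the CA1 difference was 0.38 ± 0.26 (adjusted p = 0.432), and the change of this difference between HCl and TE was 0.47 ± 0.36 (adjusted p = 0.646). The Csf1r call was lost in DESeq2 (adjusted p = 0.109), with no filter on low counts (adjusted p = 0.0519), without every replicate 4, the shallowest of each library (adjusted p = 0.0545), and at equal depth, with each replicate thinned to 35932 UMIs, where the difference was -0.12 (adjusted p = 0.963). The thinning was a single random draw and left few Csf1r UMIs per replicate. The call was also lost without CA1 replicate 1 or 3 or DG replicate 1, 3 or 4, at 0.78 to 0.86.

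Cst3 in CA1 exceeded that in DG by 1.03 ± 0.18 (log2, SE, adjusted p = 2.606e-05) in fresh-frozen HCl and by 0.44 ± 0.15 (adjusted p = 0.0490) in fresh-frozen TE. It was higher in CA3 than in DG by 0.87 ± 0.16 (adjusted p = 0.000497) in fresh-frozen HCl and by 1.39 ± 0.38 (adjusted p = 0.0201) in paraffin. For CA3 in fresh-frozen TE the difference was 0.15 ± 0.16 (adjusted p = 0.689). Both HCl calls held in all 9 other analyses and with each of the 8 replicates left out in turn. The TE call was lost in 6 of the 9, at adjusted p = 0.0631 (filterByExpr), 0.0663 (DESeq2's size factors), 0.0693 (all 12 replicates of the condition), 0.0832 (DESeq2), 0.0984 (without every replicate 4) and 0.326 (thinned). The paraffin call was lost in DESeq2 (adjusted p = 0.0781) and without every replicate 4 (adjusted p = 0.130), and without DG replicate 3 the paraffin difference was 2.33 and at equal depth 2.18. With single replicates left out, the TE call held in 2 of 8 (lost without CA1 replicate 1, 3 or 4 or DG replicate 1, 2 or 3, at 0.32 to 0.49) and the paraffin call in 3 of 8 (lost without CA3 replicate 2 or 3 or DG replicate 1, 2 or 4, at 0.99 to 1.28).
The HCl difference exceeded the TE difference by 0.56 ± 0.23 for CA1 (adjusted p = 0.283) and by 0.75 ± 0.23 for CA3 (adjusted p = 0.452). With the replicate block it did so by 0.58 (adjusted p = 0.0326) and 0.76 (adjusted p = 0.00807). The fresh-frozen HCl CA1 library, on which the CA1 value rests, was not among the libraries in which the pairing check hinted at paired replicates.

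Oligodendrocyte genes moved with the same regions. All 11 tested genes of the 12 listed were higher in CA1 than in DG in both fresh-frozen conditions and in fixed frozen TE, and 5 of 11 in paraffin. For CA3 over DG the numbers were 11, 11, 6 and 1 of 11. Their summed level was 10810 to 21186 CPM in CA1, 8296 to 11957 in CA3 and 3794 to 6185 in DG of fresh-frozen HCl, and 7018 to 12175, 6532 to 9468 and 2995 to 4009 CPM in fresh-frozen TE. In fixed frozen TE, where the oligodendrocyte sum was 12697 ± 4871 CPM (SD, n = 4) in CA1 and 2753 ± 497 (SD, n = 4) in DG, Cst3 differed by -0.09 ± 0.22 between CA1 and DG (adjusted p = 0.892).
Astrocyte genes (15 of 15 in the table) summed to 5819 ± 257 CPM (SD, n = 4) in CA1 and 6937 ± 733 (SD, n = 4) in DG of fresh-frozen HCl, the opposite order to Cst3. The choroid plexus sum (8 genes) in paraffin was 9098, 71.1, 44.8 and 249 CPM in the DG replicates, so that its high replicate was replicate 1 and the Cst3-high one replicate 3. In paraffin CA3 it was 894, 1159, 272 and 601 CPM. The choroid plexus sum was uneven in the fresh-frozen conditions too. In fresh-frozen HCl it ranged from 226 to 3328 CPM in CA1, 52.0 to 389 in CA3 and 92.7 to 2379 in DG. In fresh-frozen TE it ranged from 41.3 to 359 CPM in CA1, 162 to 1113 in CA3 and 61.1 to 2735 in DG. The part of these cells in the Cst3 differences was not tested.

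The remaining 7 genes showed no region difference that passed the adjusted threshold in any condition. P2ry12 came nearest, at 1.23 ± 0.46 (adjusted p = 0.0583) for CA1 over DG in fresh-frozen HCl and at -2.09 ± 0.79 (adjusted p = 0.0747) for CA3 over DG in fixed frozen TE. Its 4 CA3 and 4 DG values did not overlap in 3 conditions, with CA3 above DG in the 2 fresh-frozen conditions and below it in fixed frozen TE. Such separation in the same direction was found in 7.12% and 5.88% of all genes tested in HCl and TE and in 7.87% in fixed frozen TE, and 3, 1 and 1 of the members showed it. For CA1 above DG the shares were 8.94% in HCl, beside 2 members, and 6.82% in TE, beside 1. C1qa differed by 1.51 ± 0.70 between CA1 and DG in fresh-frozen HCl (adjusted p = 0.136), on 21 UMIs in CA1 and 6 in DG.
C1qb was 0.70 ± 0.31 higher in CA1 than in DG in fresh-frozen TE without overlap (adjusted p = 0.177). For Ctss in fresh-frozen TE the fitted CA1 over DG difference was -0.05, with an approximate 95% interval from -0.55 to 0.45. For C1qc in fresh-frozen HCl it was -0.02, with an interval from -0.61 to 0.58.

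Between CA1 and CA3, 0 of 28 tests passed in edgeR (3 at an unadjusted p under 0.05) and 0 in DESeq2 (2 at an unadjusted p under 0.05). Cx3cr1 in fresh-frozen TE differed by 0.67 ± 0.24 (adjusted p = 0.129), and by 0.63 (adjusted p = 0.0267) with the replicate block. Tmem119 in fresh-frozen HCl was 1.07 lower in CA1 on the log2 scale, at -1.07 ± 0.45 (adjusted p = 0.137). Cst3 in paraffin was at -1.14 ± 0.44 (adjusted p = 0.169).

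Against these counts, 17% of all genes tested were called between CA1 and DG in fresh-frozen HCl, 10.1% in fresh-frozen TE, 8.14% in fixed frozen TE and 3.29% in paraffin. Higher in CA1 were 8.61% in HCl and 5.15% in TE, beside 2 and 1 of the 9 members. For CA3 over DG the shares were 8.99%, 7.91%, 9.27% and 3.21%, with 4.46% higher in CA3 in HCl and 1.93% in paraffin, beside 1 of 9 members in HCl and 1 of 4 tested in paraffin, where the other 5 had too few UMIs. For CA1 over CA3 they were 9.13%, 4.4%, 7.2% and 2.36%, and no member was called.
The median fold change of the members was 0.18 for CA1 over DG in HCl and 0.38 in TE, against 0.03 and 0.01 over all genes tested, and 0.43 and 0.15 for CA3 over DG, against 0.02 and 0.03.

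**Figure D2:**
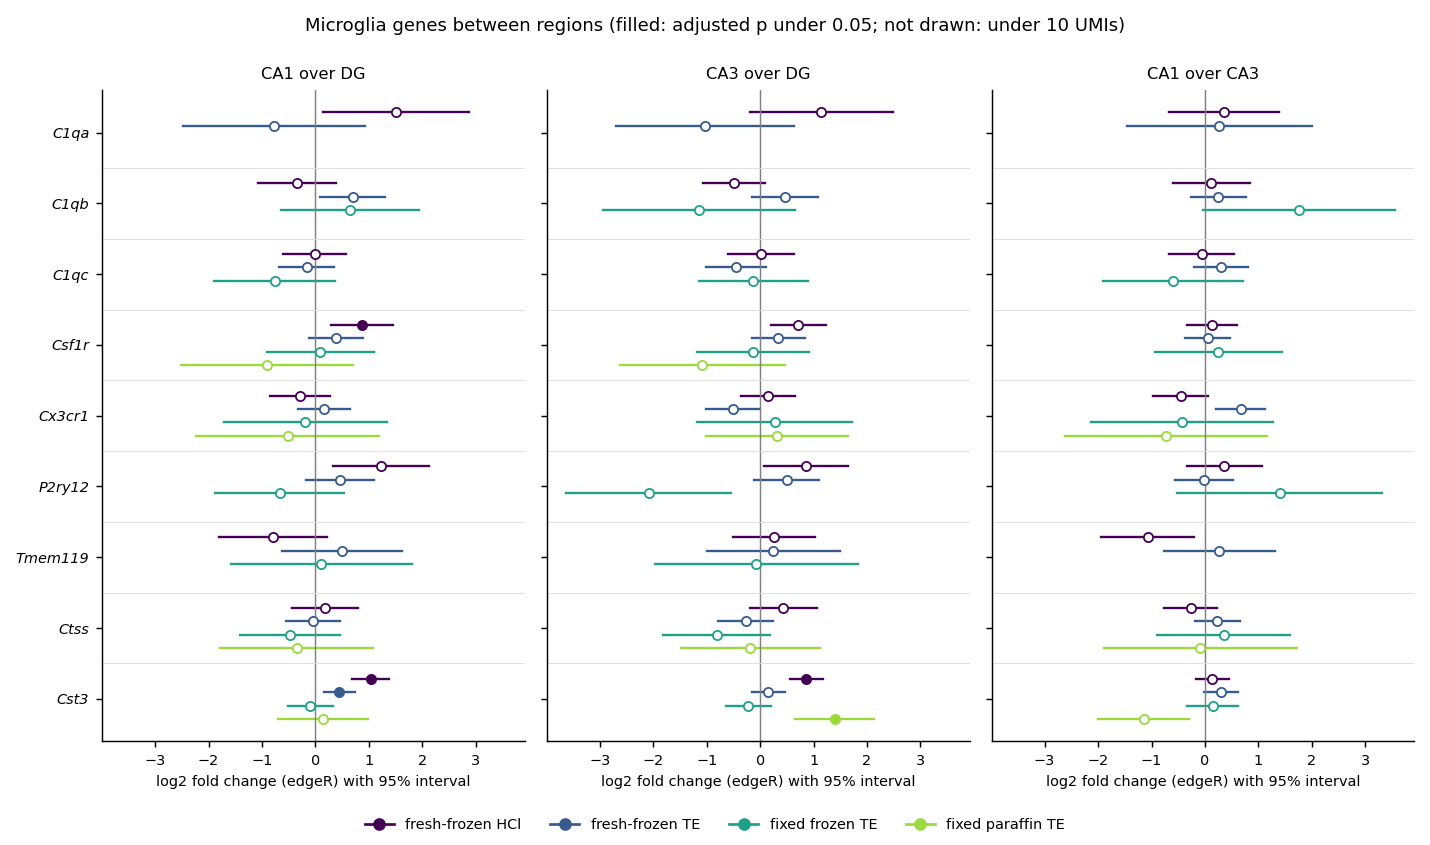
Fitted log2 fold changes (horizontal axis) of the 9 genes between regions in each of the 4 conditions, with approximate 95% intervals. Filled points passed an adjusted p of 0.05, and genes with under 10 UMIs are not drawn. The 5 filled points are Csf1r once and Cst3 4 times, and the intervals widen from the fresh-frozen to the paraffin sections.

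Whether a region difference changed with the condition was tested against fresh-frozen TE for CA1 over DG and CA3 over DG. None of 54 tests of the members passed in edgeR or DESeq2 (9 and 4 at an unadjusted p under 0.05). Over all genes the called share was 1.22% and 0.0936% for HCl (CA1 and CA3), 0.265% and 0.29% for fixed frozen TE, and 0.678% and 0.46% for paraffin. The Cst3 changes under HCl given above were the 2 that the replicate block added.

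The 4 comparisons of conditions asked how permeabilisation, fixation of the tissue and embedding altered the recovered transcripts. Each used 24 replicates with the region as a covariate. Here 18 of 36 tests passed (19 at an unadjusted p under 0.05), and 16 in DESeq2. Fresh-frozen TE is in 3 of the 4 comparisons and fixed frozen TE in 2, so they are not independent.

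In fresh-frozen TE compared with fresh-frozen HCl, 3 members were higher and 2 lower. Ctss rose by 0.79 ± 0.18 (log2, SE, adjusted p = 0.000376), from 45.5 ± 18.1 to 74.5 ± 27.5 CPM (SD, n = 12 each). P2ry12 rose by 0.66 ± 0.20 (adjusted p = 0.00796), from 13.8 ± 8.03 to 21.9 ± 4.42 CPM. Cx3cr1 rose by 0.48 ± 0.17 (adjusted p = 0.0251), from 43.7 ± 13.7 to 59.4 ± 23.1 CPM.
C1qa fell by 1.12 on the log2 scale (SE 0.43, adjusted p = 0.0415), from 6.49 ± 4.64 to 2.65 ± 2.79 CPM, on 50 and 20 UMIs. Tmem119 fell by 0.78 (SE 0.29, adjusted p = 0.0362), from 12.4 ± 5.50 to 6.52 ± 3.33 CPM. Both the rises and the falls were fitted over the same 24 replicates. C1qb, C1qc, Csf1r and Cst3 did not pass, at 0.32, 0.34, 0.29 and 0.14. For Cst3 the ratio of pooled CPM, 0.922, lay on the other side of 1 from the fitted change.
Of all genes tested 30.6% were called, 14.3% higher and 16.2% lower, with a median of -0.10 against 0.32 for the members. Without every replicate 4, the C1qa (adjusted p = 0.0709) and Cx3cr1 (adjusted p = 0.114) calls were lost. With single replicates left out, the C1qa call was lost in 15 of 24 fits (-1.14 to -0.96), the Tmem119 call in 10 (-0.77 to -0.65) and the Cx3cr1 call in 3 (0.40 without HCl CA1 replicate 1, 0.42 without TE CA1 replicate 4 and 0.41 without TE DG replicate 4), and those of P2ry12 and Ctss held in all 24. Thinned to 35932 UMIs per replicate, Ctss, P2ry12 and Cx3cr1 stood at 0.58, 0.63 and 0.38 and did not pass, and C1qa and Tmem119 had too few UMIs to be tested.

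In fixed frozen compared with fresh-frozen TE, C1qa was higher and Cx3cr1, Ctss and Cst3 were lower. Cx3cr1 fell by 1.86 (SE 0.28, adjusted p = 2.457e-08), from 59.4 ± 23.1 to 17.4 ± 12.7 CPM. Cst3 fell by 1.203 (SE 0.14, adjusted p = 4.573e-12), from 601 ± 121 to 248 ± 118 CPM. Ctss fell by 0.91 (SE 0.22, adjusted p = 0.000245), to 39.5 ± 13.9 CPM.
C1qa rose by 1.46 ± 0.56 (adjusted p = 0.0256), on 13 UMIs against 20 at a lower depth, a ratio of pooled CPM of 3.12 with a counting interval from 1.43 to 6.59. The C1qa call was lost without fresh-frozen TE DG replicate 1 (1.26), fixed frozen CA1 replicate 2 (1.16) or fixed frozen CA3 replicate 2 (0.94). Csf1r at -0.22 ± 0.22 (adjusted p = 0.436), P2ry12 at -0.01 ± 0.33 (adjusted p = 0.989) and C1qc at -0.28 ± 0.25 (adjusted p = 0.372) did not pass. The fixed frozen mean of Csf1r was 39.1 ± 14.5 CPM (SD, n = 12), close to its 42.3 ± 8.47 CPM in fresh-frozen TE. Whether the receptors differed from each other in this comparison was not tested. Thinned to equal depth, Cst3 passed, while Cx3cr1 stood at -0.76 (adjusted p = 0.292) and Ctss at -0.49 (adjusted p = 0.406).
Of all genes 48.7% were called, 15.8% higher and 32.9% lower, with a median of -0.39 against -0.28 for the members. These all-gene values depended on the filter on low counts and on depth. With filterByExpr 2103 genes were higher and 2264 lower of 6486, with a median of -0.05. Thinned to equal depth, 1254 were higher and 1401 lower of 8880, with a median of -0.08. Astrocyte genes, which are also a source of Cst3, were lower for 13 of 15, with summed medians of 7484 CPM in fresh-frozen and 2884 CPM in fixed frozen TE, and their part in the Cst3 difference was not tested.

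In paraffin compared with fixed frozen sections, both fixed and in Tris-EDTA, C1qc fell by 3.30 (SE 0.60, adjusted p = 1.615e-06) and Cst3 by 1.16 (SE 0.19, adjusted p = 1.118e-07), to 138 ± 116 CPM (SD, n = 12). C1qc was seen in 3 UMIs against 56, a ratio of pooled CPM of 0.0823 with a counting interval from 0.0165 to 0.253. Its neighbours C1qa at -0.95 ± 0.68 (adjusted p = 0.309) and C1qb at -1.02 ± 0.56 (adjusted p = 0.166) did not pass, and neither did the other 5 members. At equal depth both calls held, with Cst3 at -0.73 (adjusted p = 0.0346). Of all genes 28% were called, 13.7% higher and 14.4% lower, and the median was 0.05 against -0.91 for the members.

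In paraffin compared with fresh-frozen TE, 7 members were lower and none was higher. Cst3 fell by 2.45 (SE 0.18, adjusted p = 1.177e-22) and C1qc by 3.91 (SE 0.51, adjusted p = 1.861e-10). C1qb fell by 1.72 (SE 0.43, adjusted p = 0.000589), Ctss by 1.45 (SE 0.27, adjusted p = 4.956e-06) and Cx3cr1 by 1.34 (SE 0.29, adjusted p = 5.388e-05). P2ry12 fell by 1.09 (SE 0.42, adjusted p = 0.0292) and Csf1r by 0.92 (SE 0.30, adjusted p = 0.0104).
C1qa, at 0.11 ± 0.75 (adjusted p = 0.929), and Tmem119, at -0.13 ± 0.60 (adjusted p = 0.882), did not pass, on 4 and 7 paraffin UMIs. At equal depth Cst3 and C1qc passed, and C1qb (-0.58), Csf1r (-0.04), Cx3cr1 (-0.72), P2ry12 (-0.33) and Ctss (-0.93) did not. Among all genes 39.4% were called, 13% higher and 26.4% lower, with a median of -0.28 against -1.34 for the members. With filterByExpr 1755 genes were higher and 2021 lower of 6211, with a median of -0.07. At equal depth 1236 were higher and 1179 lower of 9409, with a median of 0.07. The Csf1r and P2ry12 calls were lost in DESeq2 (adjusted p = 0.0640 and 0.117) and in edgeR with DESeq2's size factors (adjusted p = 0.0626 and 0.108), that of Csf1r also with filterByExpr (adjusted p = 0.0850), that of P2ry12 also without paraffin CA3 replicate 2 (-0.90), DG replicate 2 (-0.97) or DG replicate 3 (-0.92), and DESeq2's size factors moved the median of all genes from -0.28 to -0.07.

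**Figure D3:**
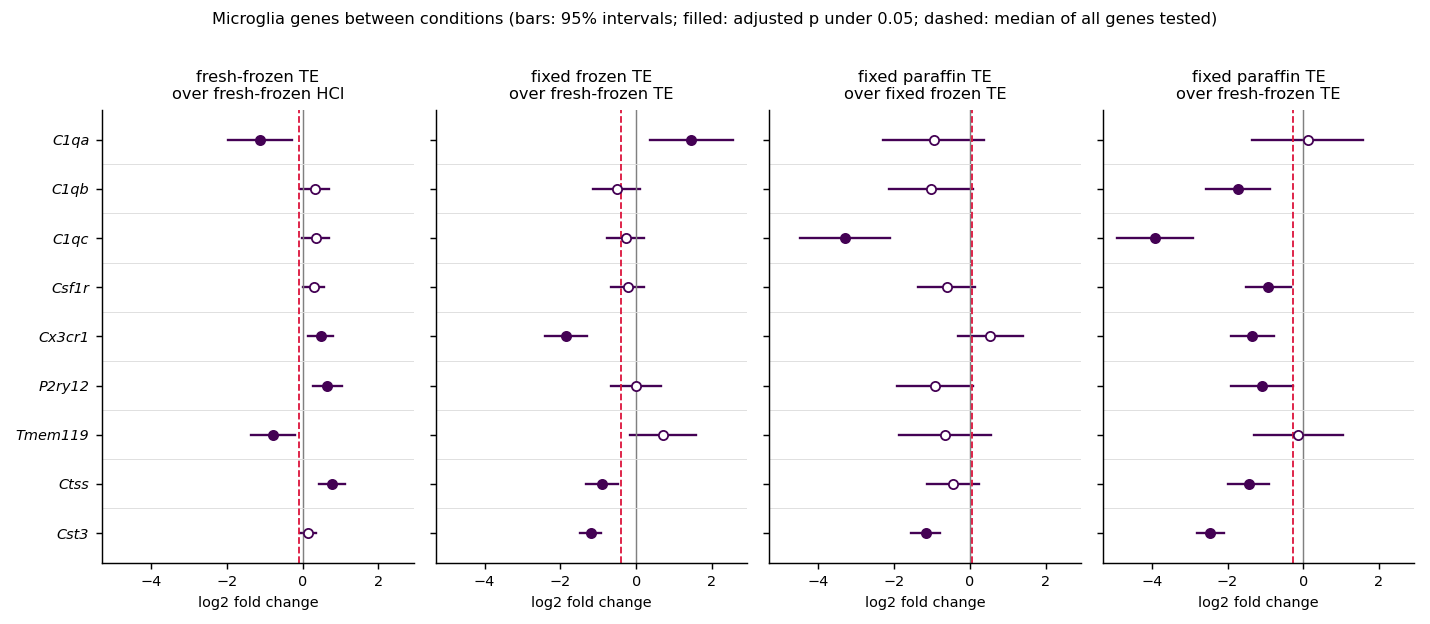
Fitted log2 fold changes (horizontal axes) of the 9 genes in the 4 comparisons of conditions, with approximate 95% intervals. Filled points passed an adjusted p of 0.05 and the dashed line is the median of all genes tested. C1qc at -3.30 and -3.91 lies farthest to the left in both paraffin comparisons, and in the TE over HCl comparison C1qa and Tmem119 lie left of 0 while Ctss, P2ry12 and Cx3cr1 lie right of it.

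The 3 chains of C1q are joined in equal numbers in the protein, and their transcripts were compared as shares of the C1q UMIs, a measure of counts at each 3′ end that the scaling between replicates does not touch. C1qa made up 10.6% of 472 C1q UMIs in fresh-frozen HCl (exact 95% binomial interval 7.97 to 13.7) and 3.88% of 515 in fresh-frozen TE (2.39 to 5.93), and these intervals were apart. In fixed frozen TE its share was 13.3% of 98 (7.26 to 21.6), and in paraffin 25.0% of 16 (7.27 to 52.4).
C1qc made up 53.2%, 56.9% and 57.1% in the first 3 conditions and 18.8% in paraffin (4.05 to 45.6), below the lower bound of 46.7% in fixed frozen TE. C1qb took 36.2%, 39.2%, 29.6% and 56.3%. The intervals cover counting error only, over UMIs pooled from 12, 12, 11 and 8 replicates with a C1q UMI.

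**Figure D4:**
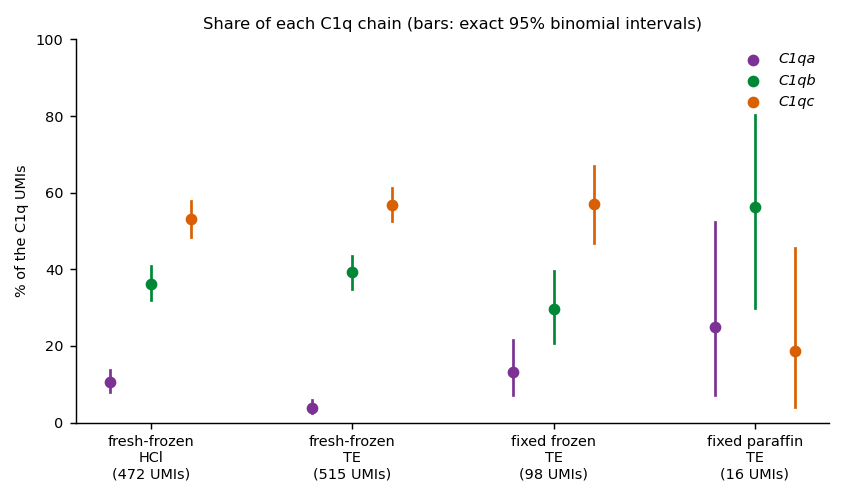
Share of C1qa, C1qb and C1qc in the C1q UMIs of each condition (vertical axis, %), pooled over regions and replicates, with exact 95% binomial intervals. The C1qa share is 10.6% in fresh-frozen HCl and 3.88% in fresh-frozen TE, and the C1qc share is 18.8% in paraffin against 53.2% to 57.1% elsewhere.

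The ligands of the member receptors were described beside them, and of these Cx3cl1 and Il34 are expressed largely by neurons. Cx3cl1, which encodes fractalkine, exceeded its DG level in CA1 by 0.87 ± 0.18 (log2, SE, adjusted p = 0.000367) in fresh-frozen HCl, by 0.88 ± 0.15 (adjusted p = 6.424e-05) in fresh-frozen TE and by 1.84 ± 0.19 (adjusted p = 6.918e-20) in fixed frozen TE. Its CA1, CA3 and DG means were 397 ± 68.7, 270 ± 31.1 and 219 ± 32.8 CPM (SD, n = 4) in fresh-frozen HCl and 1003 ± 42.5, 317 ± 33.3 and 275 ± 45.4 CPM in fixed frozen TE. In paraffin CA3 was highest, at 690 ± 180 CPM (SD, n = 4) against 289 ± 134 in CA1 and 231 ± 52.4 in DG, with CA3 over DG at 1.56 ± 0.27 (adjusted p = 2.736e-05).
The receptor Cx3cr1 showed no region difference that passed in these libraries without the replicate block, and with it the CA1 over CA3 difference in fresh-frozen TE given above. Il34, a CSF1R ligand, was highest in CA3, at 30.2 ± 4.04 CPM (SD, n = 4) against 9.16 ± 4.92 in CA1 and 15.3 ± 6.76 in DG of fresh-frozen HCl. It exceeded DG by 1.15 ± 0.34 (adjusted p = 0.0337) in HCl and by 1.56 ± 0.44 (adjusted p = 0.0217) in fresh-frozen TE. Csf1, the other CSF1R ligand, was called in no region comparison and rose by 0.79 ± 0.20 (adjusted p = 0.00139) in fresh-frozen TE over HCl. The receptor Csf1r stood at 46.9 ± 5.36 CPM (SD, n = 4) in CA1, 41.5 ± 7.05 in CA3 and 25.1 ± 5.42 in DG of fresh-frozen HCl, where CA1 and CA3 lay within their spread.

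**Figure D5:**
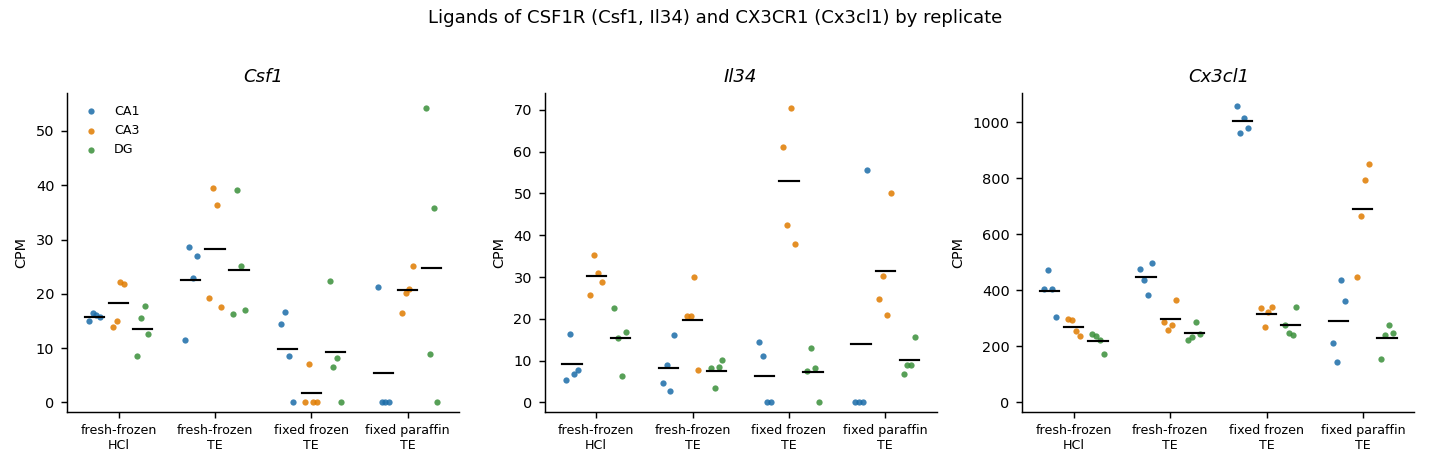
CPM of Csf1, Il34 and Cx3cl1 (vertical axes, linear) in every replicate by condition, with 1 point per replicate, colour for the region and a black line for the mean of 4. Cx3cl1 is highest in CA1 in the first 3 conditions, up to a mean of 1003 CPM in fixed frozen TE, and Il34 is highest in CA3.

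A list of 42 further genes of microglia gave the setting for the members. In fresh-frozen TE over HCl, 6 of the 42 rose, among them Golm1 by 1.23 and Rnase4 by 0.82, and 4 fell, among them Bin1 by 1.35 and Lgmn, which encodes the lysosomal protease legumain, by 0.68 on the log2 scale. In fixed frozen over fresh-frozen TE, 2 of 41 rose (Bin1 by 2.37 and Lgmn by 1.26) and 11 fell, among them Sall1, which encodes a transcription factor of microglial identity, at -2.86. In paraffin over fresh-frozen TE, 2 of 42 rose, Bin1 by 2.72 and Lgmn, and 14 fell, among them Rnase4 at -2.59. In paraffin over fixed frozen TE 3 of 25 rose and 4 fell. The 4 that fell, Tyrobp, Siglech, Gpr34 and Rgs10, are named because of their number, after their values were seen.
Bin1, Sparc and Cd81 on this list are also expressed by other brain cells. Between regions, for CA1 over DG, 4 of 36 were higher in HCl, Lgmn by 1.62 ± 0.30 (adjusted p = 8.252e-05) and Bin1 by 0.88 ± 0.20 (adjusted p = 0.00145) among them, and 1 (Sparc) was lower, while in fresh-frozen TE none was higher and 2 (Golm1 and Hpgds) were lower. For CA3 over DG 1 of 39 was higher in HCl (Bin1) and 0 of 37 were called in TE. These counts, and those between conditions, stand beside the shares of all genes called given above for the same comparisons, such as 17% for CA1 over DG in HCl and 30.6% for TE over HCl.

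Relatives of the lysosomal members were fixed as a list of 16 cathepsins and cystatins. In fresh-frozen TE over HCl, Ctsd (0.65 ± 0.14) and Ctsl (0.45 ± 0.12) rose with Ctss, and Ctsf fell by 0.60, among 12 tested. In fixed frozen over fresh-frozen TE, where Ctss and Cst3 fell, 2 of 11 rose, Ctsd by 0.65 ± 0.18 among them, and 2 fell. In paraffin over fresh-frozen TE 3 fell and none rose, with Ctsb, which encodes the abundant protease cathepsin B, at -0.49 ± 0.14 (adjusted p = 0.00234). Ctsb was also higher in CA3 than in DG in fresh-frozen HCl, by 0.65 ± 0.15 (adjusted p = 0.00638), as Cst3 was.
Of 20 genes of reactive microglia, 12 could be tested between the fresh-frozen conditions, with 3 higher and 1 lower in TE. Of 35 partners of C1q, such as complement regulators and phagocytic receptors, 5 were higher and 7 lower of 29 in that comparison. In paraffin over fixed frozen TE, where C1qc fell, 5 were higher and 2 lower of 23. Beside these counts, 30.6% of all genes tested were called in TE over HCl and 48.7% in fixed frozen over fresh-frozen TE. The shares were 39.4% in paraffin over fresh-frozen TE and 28% in paraffin over fixed frozen TE.

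How the members varied together was described in the 24 fresh-frozen replicates, as deviations of log2(CPM + 1) from the mean of each library. Pearson's r was highest for Tmem119 with Cst3 (0.719, n = 24), followed by C1qc with Tmem119 (0.494), C1qb with Tmem119 (0.487), Cx3cr1 with Ctss (0.469) and C1qb with C1qc (0.465). It was lowest for C1qb with P2ry12 (-0.533) and P2ry12 with Tmem119 (-0.404). Replicate 4 is the shallowest in all 12 libraries, and these replicates share library and depth, so the values are a description of this set only.
Summed over the 8 members other than Cst3, the level was 218 ± 34.2 CPM in fresh-frozen HCl, 271 ± 54.5 in fresh-frozen TE, 175 ± 39.5 in fixed frozen TE and 118 ± 50.02 in paraffin (SD, n = 12 each). Its own genes with enough UMIs followed this sum unevenly over the 24 replicates. Ctss had r = 0.67, C1qc 0.595, Cx3cr1 0.574, C1qb 0.225, Csf1r 0.113 and P2ry12 -0.0104. Outside the sum, the genes most like it over the 24 replicates were Stx1a (r = 0.754), Gpr37 (0.707), Gnb5 (0.701), Ldb2 (0.700) and Tgfbr1 (0.698), among 8436 genes whose median r was -0.04. Over the 12 library means they were Dlx1 (0.972), Ntrk2 (0.957), Pds5b (0.955), Zc3h13 (0.954) and Khsrp (0.953), among 6568 genes with a median of 0.40.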

How the data were processed

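Per the labels and the study's methods, the authors made CEL-seq2 libraries with 6-base barcodes and 6-base UMIs, trimmed reads with Trim Galore!, mapped them to GRCm38 with HISAT2 2.1.0, assigned genes with featureCounts 1.6.4 and counted UMIs with UMI-tools 1.0.0 (method unique), with no strand option in the printed counting command. The annotation release is not given in the sources used here. The deposited values are whole UMI counts per gene and replicate, not normalized. All 48 columns were matched to samples by name, with 0 left unmapped. A deposited barcode list was not used.

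Counts were tested with edgeR 4.0.16 (R 4.3.3; TMM scaling, quasi-likelihood, at least 10 summed UMIs, Benjamini-Hochberg over all genes tested). Region comparisons used 8 replicates, condition comparisons 24 with region as a covariate, and interactions the replicates of both conditions. The step was tested on simulated data. Alternatives were DESeq2 1.42.0, its size factors in edgeR, no filter, filterByExpr, the replicate number as a block, thinning to the smallest total, a correction for UMI collisions in a space of 4096 (the highest member count was 833), all 12 replicates of a condition in a region fit, and leaving out each replicate. Leaving out every replicate 4 was added after seeing the data. CPM, shares with exact binomial intervals and exact permutation tests were computed in Python 3.11.15 with scipy 1.17.1. Depth per replicate was 35932 to 1111804 UMIs. Intervals of shares and of pooled ratios cover counting error only. Those of fold changes apply a normal quantile to standard errors derived from the edgeR F statistic. They are therefore approximate and somewhat narrower than the test itself implies.

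Same-numbered replicates of 2 libraries were checked by the correlation of their deviations from library means. Every one was over 0.1 in 10 of 66 pairs of libraries, namely all pairs among fresh-frozen HCl CA3 and DG and the 3 fresh-frozen TE libraries, 4 of them within 1 condition and 6 between HCl and TE. This is a hint from the data that the numbers may pair the replicates there, with no label behind it. Replicate 4 is the shallowest in all 12 libraries, and the part of depth in these correlations was not tested.

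Genes other than members were named by a rule: up to 4 called genes per list and comparison, by largest absolute fold change among those with a mean of at least 10 UMIs, and the 5 genes most like the summed members. Genes named with a count of 5 or fewer, genes at 0, the motif letters and the ligands' levels were chosen after values were seen. Some values of the list of further microglia genes are not reported here. The members and lists were chosen with earlier results of these data known. Gene positions are from GENCODE M21 on GRCm38, which held 32515 of the 32546 gene IDs. The series' design text writes CA2 where the sample labels write CA3, and CA3 was used.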

Additional observations from a re-analysis of the deposited data

Results flagged for a closer look

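Of 106 groups of 4 replicates checked for a value far from the other 3 (a gap to the nearest, as a share of the range, above Dixon's 95% critical value), 15 were flagged, and chance flags about 1 in 20 groups of continuous values. That rate does not hold near 0, where a lone replicate with UMIs is always flagged, as in 8 of the 15. Of all flags, 6 rest on 1 UMI and 1 on none. In paraffin, C1qa stood at 14.1261 CPM in CA1 replicate 3 and at 8.27321 CPM in CA3 replicate 1, C1qb at 17.9982 CPM in CA1 replicate 2 and at 10.0743 CPM in CA3 replicate 2, and Tmem119 at 27.8303 CPM in CA1 replicate 4 and at 10.0743 CPM in CA3 replicate 2, each on 1 UMI with the other 3 replicates at 0. Ctss was at 0 in paraffin CA3 replicate 1, where the nearest other replicate had 41.8 CPM.

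On 3 to 9 UMIs, C1qb stood at 30.5539 CPM in fixed frozen CA3 replicate 1 and Tmem119 at 27.6437 CPM in fixed frozen CA1 replicate 2, with the others at 0, and C1qc at 63.5225 CPM in fixed frozen CA3 replicate 2, where the nearest had 23.5 CPM. In paraffin DG replicate 4, Csf1r stood at 108.924 CPM on 7 UMIs (nearest 27.1) and Tmem119 at 46.6817 CPM on 3 UMIs (nearest 6.78). In fresh-frozen HCl CA1 replicate 4, the shallowest of that library, C1qc stood at 62.8669 CPM on 8 UMIs (nearest 32.2) and Ctss at 23.5751 CPM on 3 UMIs (nearest 47.2). Cst3 stood at 170.362 CPM in paraffin DG replicate 3 on 38 UMIs, where the nearest had 47.5 CPM.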

How the results depend on the processing

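The 23 called fold changes of the members were recomputed in 180 analyses other than single replicates left out. Of these, 151 still passed, 28 kept the direction but not the threshold, and 1 reversed: Csf1r for CA1 over DG in fresh-frozen HCl, at -0.12 when every replicate was thinned to the smallest total. The Csf1r call was also lost with no filter on low counts. With single replicates left out, 422 of 472 passed. The number of CA1 over DG calls, 3, became 1 in DESeq2 and 1 without every replicate 4, and that of CA3 over DG, 2, became 1 and 1. For these region counts a replicate number of 1 region was left out in all 4 conditions at once. They then ranged from 1 to 3 and from 1 to 2. TE over HCl calls, 5, became 3 with filterByExpr, which did not test C1qa and Tmem119, 0 when thinned and 3 without every replicate 4 (3 to 5 with single replicates left out). Fixed frozen over fresh-frozen TE calls, 4, became 1 when thinned (3 to 4). Paraffin over fixed frozen calls, 2, became 1 with filterByExpr (2 to 2), and paraffin over fresh-frozen TE calls, 7, became 4 with filterByExpr and 2 when thinned (6 to 7). Thinning was a single random draw that keeps 35932 UMIs of each replicate. At the CPM given above, this leaves few UMIs per replicate of the members other than Cst3. Otherwise the cause was not tested.

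With the replicate number as a block, all 23 called fold changes passed. The CA1 over CA3 count went from 0 to 1, the CA3 over DG count from 2 to 3, and the interactions from 0 to 2. Without the block, the CA1 over CA3 count was 2 with CA3 replicate 1 left out in all 4 conditions at once (range 0 to 2). The interaction count was 1 without paraffin DG replicate 3 (range 0 to 1 with single replicates left out). In the 10 pairs of libraries named under the pairing check, the pairing is a hint only. Outside them, neither a label nor that check pairs the replicates, and whether they are paired was not decided. Over all 66 pairs of libraries, those 10 included, 140 of 264 replicates compared correlated best with their own number. This count was not made for the other pairs alone. DESeq2's size factors moved the median of all genes by 0.174 for paraffin over fixed frozen TE and by 0.213 for paraffin over fresh-frozen TE.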
